A study of Mus musculus with 9 samples.

Results

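The expression of transporter genes was examined in NMuMG cells, an immortalized line from the mouse mammary gland epithelium, in 9 RNA-Seq libraries of 3 cell populations. The genes were those with a symbol in the solute carrier families Slc1, Slc2, Slc3, Slc5, Slc6, Slc7, Slc16, Slc36, Slc38 and Slc43, which were chosen by name and not by any measured value, and 98 of the 52459 gene symbols in the quantified transcriptome met this rule. Mock cells carry the empty pBICEP expression vector, EPR cells carry the vector with the complete long noncoding RNA EPR (listed as BC030870 in the annotation), and EPRSTOPE cells carry EPR with a codon of its small open reading frame changed to a stop codon, so that the RNA is made without its peptide. All populations share the NMuMG background, the G418 selection and a culture in DMEM with fetal serum and insulin, and none was treated with TGF-β. Each population consists of stable transfectants with 3 libraries, which the paper calls biological triplicates. They are named here by their library numbers (203 to 205 for mock, 206 to 208 for EPR and 209 to 211 for EPRSTOPE). The paper mentions different transfectant pools for EPR and 3 independent ones for EPRSTOPE, but does not tie them to these libraries. The sources used here do not say whether the libraries of a population came from separate pools, so the p-values measure the spread between these libraries, and differences between populations cannot be told apart from differences between pools.

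The solute carriers studied here move nutrients across the plasma membrane or the lysosomal membrane. The Slc2 family carries hexoses along their gradient and the Slc5 family couples sugars, inositol or vitamins to sodium. Families Slc1, Slc6, Slc7, Slc36, Slc38 and Slc43 carry amino acids and related compounds such as taurine, glycine and creatine. Many Slc7 carriers are light chains that reach the cell surface only when bound to the heavy chain CD98, the product of *Slc3a2*. Family Slc16 holds the proton-linked carriers of lactate and pyruvate as well as carriers of aromatic amino acids. Mammary epithelium draws on these carriers for glucose and amino acids, and in cultured cells several of them are known targets of the amino acid response factor ATF4, of the antioxidant factor NRF2 and of hypoxia-inducible factors.

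Library totals ran from 5972457 to 11876435 estimated counts, so that 3 counts corresponded to 0.253 to 0.502 CPM, the count scaled to the size of the library. EPR RNA itself was at 0, 0 and 0.163 CPM in mock, at 23.7, 27.0 and 23.9 CPM in EPR and at 4.74, 4.17 and 3.80 CPM in EPRSTOPE libraries, so the mutant RNA was less abundant than the full RNA (log2 fold change of EPR against EPRSTOPE 2.56, standard error 0.20, adjusted p = 2e-06 by edgeR). The missing peptide, this lower level and differences between pools therefore cannot be told apart in the comparison of EPR with EPRSTOPE. EPR RNA had 0, 0 and 2 counts in the mock libraries. Its log2 fold change against mock was 8.2 in EPR cells (standard error 0.355). The paper reports EPR as expressed in NMuMG cells and gives a smaller fold of overexpression for its transfectant pools. The source of this gap was not tested. Of 8 epithelial markers, *Krt8* and *Krt18* were abundant in every library and make up most of the sum below. *Cdh1* was at 0.843 ± 0.464 CPM in mock (SD, n = 3) against 556.3 ± 13.7 CPM with EPR and 402.6 ± 22.8 CPM with EPRSTOPE. *Epcam* was at 0 in every mock library, at 3.63 ± 1.07 CPM with EPR and at 0.11 ± 0.11 CPM with EPRSTOPE. *Krt7* averaged 1.87, 9.11 and 1.44 CPM and *Krt19* 279.8, 584.2 and 385.1 CPM in the order mock, EPR, EPRSTOPE. *Epcam*, *Krt7* and *Krt19* were called higher in EPR and uncalled in EPRSTOPE cells against mock. *Cldn4* and *Esrp1* stayed at or under 0.253 CPM in every library. The summed level of the 8 markers was 3693 to 4158 CPM in mock, 9490 to 10600 CPM in EPR and 10680 to 11020 CPM in EPRSTOPE libraries, with 3 of the 8 at 0 in all mock libraries. The 7 mesenchymal markers summed to 3943 to 4121 CPM in mock, 2142 to 2369 CPM in EPR and 3873 to 4226 CPM in EPRSTOPE libraries. Most of this sum is *Vim* (vimentin). Within it *Vim* was at 2634 ± 104.8, 1768 ± 110.0 and 3138 ± 113.1 CPM in the order mock, EPR, EPRSTOPE (SD, n = 3 each), and *Fn1* (fibronectin) was at 1039 ± 19.5, 378.7 ± 20.1 and 782.3 ± 88.3 CPM. Both were called lower in EPR and uncalled in EPRSTOPE cells against mock. *Cdh2* (N-cadherin) was called lower in both, at 330.5 ± 3.62, 132.4 ± 7.17 and 158.3 ± 8.04 CPM, as was *Twist2* at 26.8 ± 2.69, 9.82 ± 1.14 and 12.4 ± 3.77 CPM. The leukocyte, endothelial, adipocyte and neuron lists stayed at or under 16.4 CPM in sum in every library, and the myoepithelial list went from 10.4 to 11.6 CPM in mock to 1.14 to 1.66 CPM in EPR and 2.76 to 3.42 CPM in EPRSTOPE libraries. Most of that fall is *Acta2*, at 10.1 ± 0.69, 1.17 ± 0.25 and 0.80 ± 0.61 CPM in the order mock, EPR, EPRSTOPE. *Krt14* was at 0.90 ± 0.22 CPM in mock, at 0 in EPR and higher, though uncalled, at 2.32 ± 0.92 CPM in EPRSTOPE libraries. *Krt5* stayed at or under 0.349 CPM, and *Trp63* had no count. The part of these marker shifts in the transporter results below was not tested.

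Of the 98 transporter genes, 85 had at least 1 count in some library and 39 passed the filter of at least 1 CPM in at least 3 libraries. Calls required a change of more than 0.5 on the log2 scale together with a Benjamini-Hochberg adjusted p below 0.01 in edgeR's quasi-likelihood test, fitted to all 15370 genes that passed. In EPR against mock cells 14 of the 39 were called higher and 5 lower, beside 15.2% and 12.9% of all genes tested. In EPRSTOPE against mock cells 9 were called higher and 3 lower, beside 15.6% and 12.4% of all genes. In EPR against EPRSTOPE cells 6 were called higher and 3 lower, beside 6.86% and 6.35%. Counts by list of transporter genes, given below, rest on few genes each and stand beside the same shares. The median log2 fold change of the 39 genes was 0.23 in EPR against mock, -0.04 in EPRSTOPE against mock and 0.15 in EPR against EPRSTOPE, beside -0.01, -0.04 and 0.01 over all genes. A gene may have passed the filter only through the population in which it was high, so these counts describe the genes tested and not the families as a whole. Libraries of EPR and mock did not overlap for 30 of the 39 genes (76.9%, beside 57.8% of all genes), and those of EPRSTOPE and mock for 25 (64.1%, beside 56.5%). For a single gene an exact two-sided permutation test of 3 libraries against 3 cannot give a p under 0.1.

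The comparisons of EPR and of EPRSTOPE with mock share the mock libraries, and their values are therefore given side by side without a measure of likeness. Among those called higher in both were *Slc2a1*, *Slc2a9*, *Slc5a3*, *Slc6a9*, *Slc7a7*, *Slc16a13*, *Slc38a6* and *Slc43a2*. Called lower in both were *Slc6a6*, *Slc7a6* and *Slc16a4*. A further 5 genes passed as higher in the EPR comparison and did not pass in that of EPRSTOPE (*Slc7a2*, *Slc7a4*, *Slc7a11*, *Slc36a4* and *Slc38a2*), as did *Slc5a6* and *Slc7a5* among the lower ones. No gene was called in opposite directions, and 20 were called in neither comparison.

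**Figure D1:**
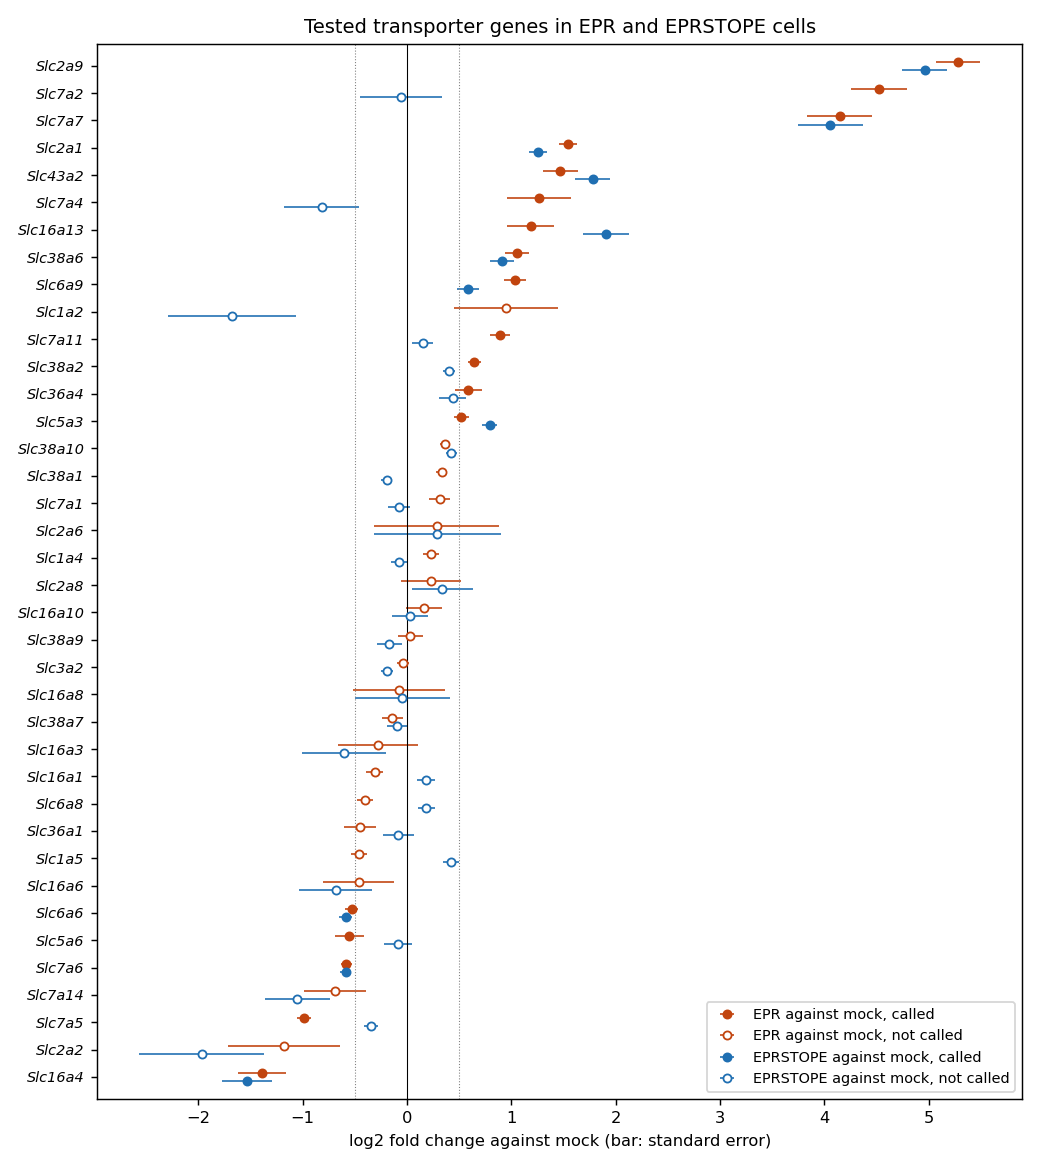
Log2 fold change against mock for 38 of the 39 transporter genes tested, in EPR cells (orange) and EPRSTOPE cells (blue), ordered by the value in EPR cells, with the standard error as a bar, filled points for called genes and dotted lines at 0.5 and -0.5. *Slc2a9* lies at the top in both comparisons (5.29 and 4.96), *Slc16a4* at the bottom for EPR (-1.39), and *Slc7a2* at 4.53 in EPR and -0.05 in EPRSTOPE cells.

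Levels were compared between genes in TPM, the transcript level corrected for length. The taurine carrier gene *Slc6a6* was the most abundant in mock cells at 290.6 ± 48.0 TPM (SD, n = 3), which was 27.5% of the TPM of all 98 genes, followed by *Slc3a2* at 187.7 ± 31.6 and *Slc7a6* at 107.2 ± 8.58 TPM. In EPR cells *Slc3a2* (160.4 ± 45.8 TPM) and *Slc6a6* (140.4 ± 11.7 TPM) headed the order and did not differ beyond their spread, with *Slc38a2* at 84.4 ± 5.19 and *Slc2a1* at 70.1 ± 7.60 TPM behind them. In EPRSTOPE cells *Slc6a6* (153.1 ± 43.7 TPM) and *Slc3a2* (135.0 ± 22.3 TPM) were again within each other's spread, followed by *Slc38a2* at 72.4 ± 9.98 TPM. In the TPM order *Slc2a1* moved from place 11 among mock cells to place 4 with EPR and place 7 with EPRSTOPE. The sum over the 98 genes was 974 to 1172 TPM in mock and 896.1 to 915.7 TPM in EPR libraries. In EPRSTOPE libraries it was 795.2 to 1033 TPM, which overlapped both others. The same sum was also taken in CPM from the library totals alone, without TMM factors. It was 2919.5 to 3201.9 CPM in mock, 2932.3 to 3088.5 in EPR and 2748.6 to 2859.3 in EPRSTOPE libraries. In these counts EPR overlapped mock, and EPRSTOPE lay below both. The lower TPM sum of EPR against mock was thus not seen in counts, and its source was not tested. By family, the Slc2 genes summed to 30.9 ± 3.11 TPM in mock, 84.6 ± 12.2 TPM with EPR and 67.0 ± 9.15 TPM with EPRSTOPE, and the Slc6 genes to 343.5 ± 48.1, 184.2 ± 15.4 and 203.9 ± 48.6 TPM. Most of the Slc6 sum was *Slc6a6*, whose counts changed by -0.53 and -0.59 on the log2 scale. Its transcript of 738 nt went from 119.2 TPM in mock to 32.8 with EPR and 44.3 with EPRSTOPE. The transcript of 6186 nt went from 95.5 to 74.7 and 72.8 TPM.

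**Figure D2:**
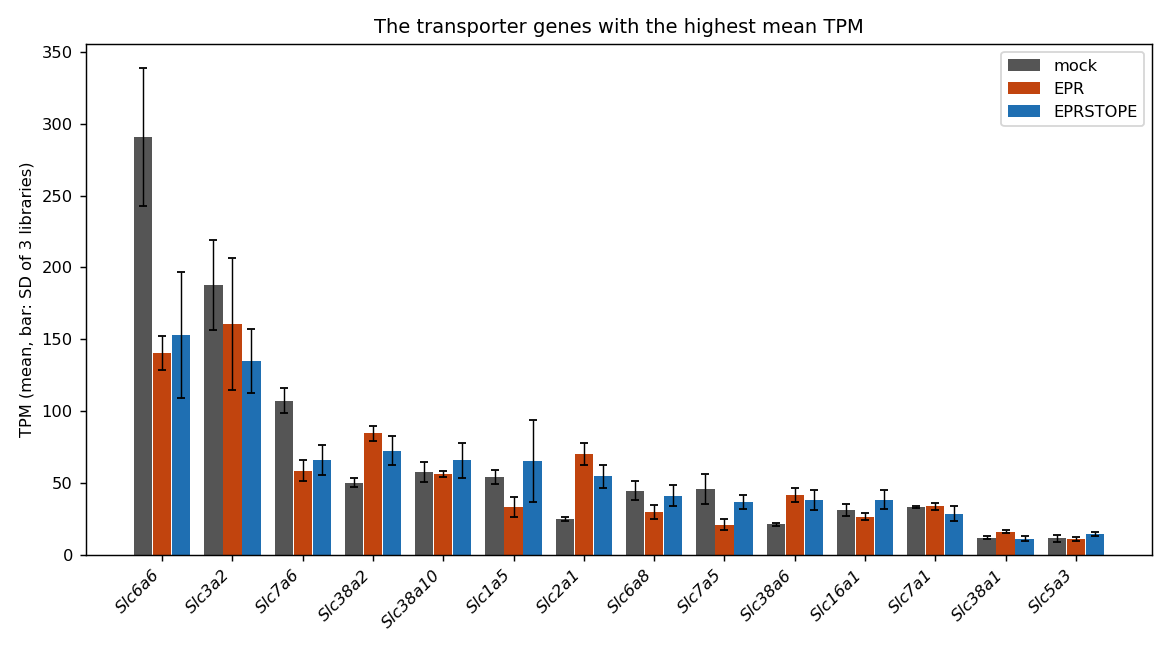
Mean TPM of the 14 transporter genes with the highest mean over all libraries, in mock (grey), EPR (orange) and EPRSTOPE cells (blue), with the SD of 3 libraries as a bar. *Slc6a6* is the tallest in mock at 290.6 TPM, and *Slc2a1* goes from 24.9 TPM in mock to 70.1 TPM with EPR and 54.4 TPM with EPRSTOPE.

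Among sugar carriers, *Slc2a1* (ENSMUSG00000028645.11, chromosome 4 from 119108711 to 119137983 on GRCm38, as Gencode M21 gives it), which encodes GLUT1, the main glucose carrier of proliferating cells, rose in both populations. It measured 59.8, 55.2 and 54.4 CPM in mock, 159, 183 and 150 CPM in EPR and 139, 124 and 141 CPM in EPRSTOPE libraries. Both overexpressing populations lay far above mock without overlap, and every EPR library was above every EPRSTOPE library. The log2 fold change was 1.54 for EPR (standard error 0.09, adjusted p = 3.3e-08) and 1.26 for EPRSTOPE (standard error 0.09, adjusted p = 1.7e-07), and the difference of 0.28 between these populations did not pass (adjusted p = 0.022 by edgeR). The transcript *Slc2a1*-204, classed as a target of nonsense-mediated decay, took 47.4% of the gene's TPM in mock, 52.9% with EPR and 56.8% with EPRSTOPE, and the longest protein-coding transcript took 23.6%, 24.2% and 29.1%.

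*Slc2a9*, which encodes GLUT9, a carrier of urate, showed the largest fold change of the 39 genes in both comparisons with mock. It was at 0.621, 0.739 and 0.326 CPM in mock, at 22.8, 20.7 and 20.6 CPM in EPR and at 18.3, 16.7 and 16.4 CPM in EPRSTOPE libraries. Its mock libraries held 4, 7 and 4 counts, so the direction is better known than the size of the log2 fold changes of 5.29 (standard error 0.21, adjusted p = 1.9e-09) and 4.96 (standard error 0.22, adjusted p = 3.4e-09 by edgeR). Of the 11 glucose and fructose carriers listed, 4 were tested and *Slc2a1* alone was called, in both comparisons. The others tested were low, with means of 0.558 to 2.004 CPM for *Slc2a2* (GLUT2), 0.688 to 0.863 CPM for *Slc2a6* and 4.26 to 5.32 CPM for *Slc2a8*. *Slc2a3*, which encodes the high-affinity carrier GLUT3, held 0 to 11 counts per library and did not pass the filter, and *Slc2a4*, which encodes the insulin-responsive carrier GLUT4, held 1 count in all 9 libraries together. The sodium-glucose carrier gene *Slc5a1* had no count in any library, which at 3 counts allows up to 0.253 to 0.502 CPM per library, a limit that covers counting error only.

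The starting regions of *Slc7a11*, *Slc7a7* and *Slc2a1* are shown as examples of windows that hold letters of the elements named above. They were picked both for a call of higher with EPR and for a match, so a match beside a rise was fixed by the choice. They are 300 bases each from RefSeq on GRCm38.p6, from 250 bases before the annotated transcript start to 50 bases after it, on the strand of the gene. Capitals mark TGATGNAAN, the C/EBP-ATF element read by ATF4, or ACGTG, the core of the hypoxia response element, which also lies inside the E-box CACGTG, both searched on either strand.
Slc7a11 at chr3:50443564-50443863, minus strand: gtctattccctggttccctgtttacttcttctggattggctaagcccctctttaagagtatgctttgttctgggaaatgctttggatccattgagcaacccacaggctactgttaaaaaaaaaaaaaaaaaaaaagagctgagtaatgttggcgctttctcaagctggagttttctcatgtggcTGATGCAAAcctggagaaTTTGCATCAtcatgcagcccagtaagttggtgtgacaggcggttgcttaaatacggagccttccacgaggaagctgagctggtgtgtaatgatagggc
Slc7a7 at chr14:54417895-54418194, minus strand: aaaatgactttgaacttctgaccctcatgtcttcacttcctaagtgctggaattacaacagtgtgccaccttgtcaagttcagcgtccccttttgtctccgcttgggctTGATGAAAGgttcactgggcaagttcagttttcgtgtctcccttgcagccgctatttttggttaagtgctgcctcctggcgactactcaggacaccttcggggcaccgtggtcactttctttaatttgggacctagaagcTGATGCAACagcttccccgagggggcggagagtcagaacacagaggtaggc
Slc2a1 at chr4:119108495-119108794, plus strand: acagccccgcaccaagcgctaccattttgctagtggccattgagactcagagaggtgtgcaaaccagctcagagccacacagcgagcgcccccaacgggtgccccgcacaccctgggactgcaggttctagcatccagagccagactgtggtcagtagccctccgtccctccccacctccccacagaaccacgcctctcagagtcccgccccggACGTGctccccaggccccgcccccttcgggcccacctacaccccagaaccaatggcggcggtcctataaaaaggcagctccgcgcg
The *Slc7a11* window holds a pair of TGATGNAAN matches on opposite strands, whose first bases lie 66 and 48 bases before the start, the *Slc7a7* window shown holds 2 matches on the gene's own strand, and the *Slc2a1* window holds 1 match to ACGTG, 36 bases before the start. *Slc7a7* has 5 such windows, of which 3 hold no TGATGNAAN and 1 holds a single match. *Slc7a6*, called lower in both populations, has ACGTG in both its windows. No window of *Slc2a9*, *Slc43a2*, *Slc5a3*, *Slc38a6* or *Slc6a9*, all called higher in both, holds either element. Promoters were given for 70 of the 98 genes, 93 in all. TGATGNAAN was in 5 of these 93 (5.38%) and in 3.95% of 32851 promoters of the same length, and ACGTG in 26 (27.96%) and in 19.62%. The antioxidant element core TGACNNNGC, which can overlap ACGTG, was in 13 (13.98%) and in 12.39%, and in none of the windows shown. A match is a description of the letters and says nothing of the binding of a factor.

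Of the 7 listed carriers of lactate, pyruvate and ketone bodies, the 4 tested were not called in any comparison. *Slc16a1*, which encodes MCT1, was the abundant one, at 174, 178 and 167 CPM in mock, 129, 130 and 160 CPM in EPR and 211, 187 and 190 CPM in EPRSTOPE libraries. The EPR libraries lay below and the EPRSTOPE libraries above all mock libraries, by log2 fold changes of -0.31 (adjusted p = 0.01) and 0.18 (adjusted p = 0.11), and the difference of -0.49 between them (standard error 0.09, adjusted p = 0.0011 by edgeR) fell just short of the fold limit. Without EPR library 208 that difference was -0.59 and passed, as it did without EPRSTOPE library 210 (-0.52) or 211 (-0.51). *Slc16a3*, which encodes the lactate exporter MCT4, averaged 1.87 ± 0.241 CPM in mock, 1.51 ± 0.511 CPM with EPR and 1.18 ± 0.443 CPM with EPRSTOPE (SD, n = 3 each), close to the filter. For these 4 carriers edgeR, DESeq2 and limma-voom each made 0 calls in all 3 comparisons, while an unadjusted p under 0.05 was reached by 1 in EPR against mock, 0 in EPRSTOPE against mock and 1 in EPR against EPRSTOPE.

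Slc16 genes outside that list were called. *Slc16a13*, which encodes MCT13, a member of the monocarboxylate carrier family, rose from 2.15 ± 0.154 CPM in mock to 4.93 ± 0.222 CPM with EPR and 8.08 ± 1.30 CPM with EPRSTOPE (SD, n = 3 each), by 1.19 and 1.91 on the log2 scale (adjusted p = 0.00078 and 1.6e-05 by edgeR). *Slc16a4*, a less studied carrier of the family, fell from 11.03, 7.49 and 9.77 CPM in mock to 3.06, 3.92 and 3.83 CPM in EPR and 2.54, 3.95 and 3.11 CPM in EPRSTOPE libraries, by 1.39 and 1.53 on the log2 scale. With length-scaled TPM in place of counts the fall in EPR cells was 1.11 on the log2 scale and did not pass.

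The genes of the CD98 complex showed a heavy chain without a call beside light chains called in both directions. *Slc3a2*, the heavy chain gene, measured 208, 214 and 205 CPM in mock, 213, 206 and 193 CPM in EPR and 175, 190 and 185 CPM in EPRSTOPE libraries. EPR overlapped mock, and EPRSTOPE lay slightly below both without a call, at log2 fold changes of -0.04 (standard error 0.06, adjusted p = 0.65) and -0.19 (standard error 0.06, adjusted p = 0.017 by edgeR). The gene lies on chromosome 19, where the median over 477 tested genes was -0.55 for EPRSTOPE and -0.02 for EPR against mock on the log2 scale. The part of that shift in the *Slc3a2* value was not tested.

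*Slc7a5* (ENSMUSG00000040010.10, chromosome 8 from 121881150 to 121907694), which encodes LAT1, the CD98 light chain that takes up leucine and other large neutral amino acids, fell in EPR cells. It was at 145, 150 and 138 CPM in mock, 74.3, 72.9 and 71.4 CPM in EPR and 105, 111 and 124 CPM in EPRSTOPE libraries. The populations did not overlap, with EPR lowest and EPRSTOPE between EPR and mock. The log2 fold change was -0.99 for EPR (standard error 0.07, adjusted p = 2.7e-07) and -0.34 for EPRSTOPE (standard error 0.07, adjusted p = 0.0013), the latter within the fold limit, and the difference of -0.64 between them was called (standard error 0.07, adjusted p = 3e-05 by edgeR). *Slc7a6*, which encodes y+LAT2, an exchanger of arginine for glutamine, fell in both, from 213, 200 and 202 CPM in mock to 142, 135 and 134 CPM in EPR and 134, 141 and 134 CPM in EPRSTOPE libraries. Its log2 fold changes were -0.58 (adjusted p = 3.5e-06) and -0.59 (adjusted p = 3e-06), and the difference between EPR and EPRSTOPE was 0.01 (standard error 0.06, adjusted p = 0.94 by edgeR). With length-scaled TPM the EPRSTOPE value was -0.53 and did not pass. The neighbouring symbol *Slc7a6os* was not called in either comparison (log2 fold changes -0.17 and -0.07).

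*Slc7a7*, which encodes y+LAT1, the exporter of cationic amino acids at the basolateral membrane of epithelia, was nearly silent in mock and rose in both populations. It was at 0.155, 0.844 and 0.977 CPM in mock, 13.7, 13.0 and 12.8 CPM in EPR and 11.5, 14.9 and 10.6 CPM in EPRSTOPE libraries. Both populations were well above mock and overlapped each other. The log2 fold changes were 4.15 (standard error 0.31, adjusted p = 4e-07) and 4.06 (standard error 0.31, adjusted p = 4.7e-07 by edgeR), on 1, 8 and 12 counts in the mock libraries. The gene is on chromosome 14, whose 490 tested genes had medians of 0.49 in EPR and 0.59 in EPRSTOPE against mock on the log2 scale, and the part of that shift in the *Slc7a7* value was not tested.

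*Slc7a11* (ENSMUSG00000027737.10, chromosome 3 from 49892526 to 50443614), which encodes xCT, the cystine-glutamate exchanger that feeds glutathione synthesis, rose in EPR cells. Its libraries read 31.9, 33.1 and 34.0 CPM in mock, 65.0, 58.0 and 61.0 CPM in EPR and 40.3, 31.5 and 38.8 CPM in EPRSTOPE cells. Every EPR library was above all others, and EPRSTOPE overlapped mock. The log2 fold change was 0.89 for EPR (standard error 0.10, adjusted p = 8.8e-06) and 0.15 for EPRSTOPE (standard error 0.10, adjusted p = 0.23), and EPR exceeded EPRSTOPE by 0.74 (standard error 0.10, adjusted p = 0.00011 by edgeR). With length-scaled TPM the last difference was 0.91 and did not pass. Of the 7 genes of the CD98 list 5 were tested, with *Slc7a8* and *Slc7a10* at 2 counts and 1 count over all libraries. In EPR cells 2 of the 5 were called higher and 2 lower against mock, beside 15.2% and 12.9% of all genes tested. In EPRSTOPE cells 1 was called higher and 1 lower, beside 15.6% and 12.4%. *Slc43a2*, which encodes LAT4, a carrier of large neutral amino acids that works without CD98, rose from 13.8, 7.39 and 10.5 CPM in mock to 28.5, 26.6 and 31.1 CPM in EPR and 36.1, 36.7 and 34.5 CPM in EPRSTOPE libraries, by 1.47 and 1.78 on the log2 scale (adjusted p = 1.5e-05 and 2.9e-06 by edgeR).

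**Figure D3:**
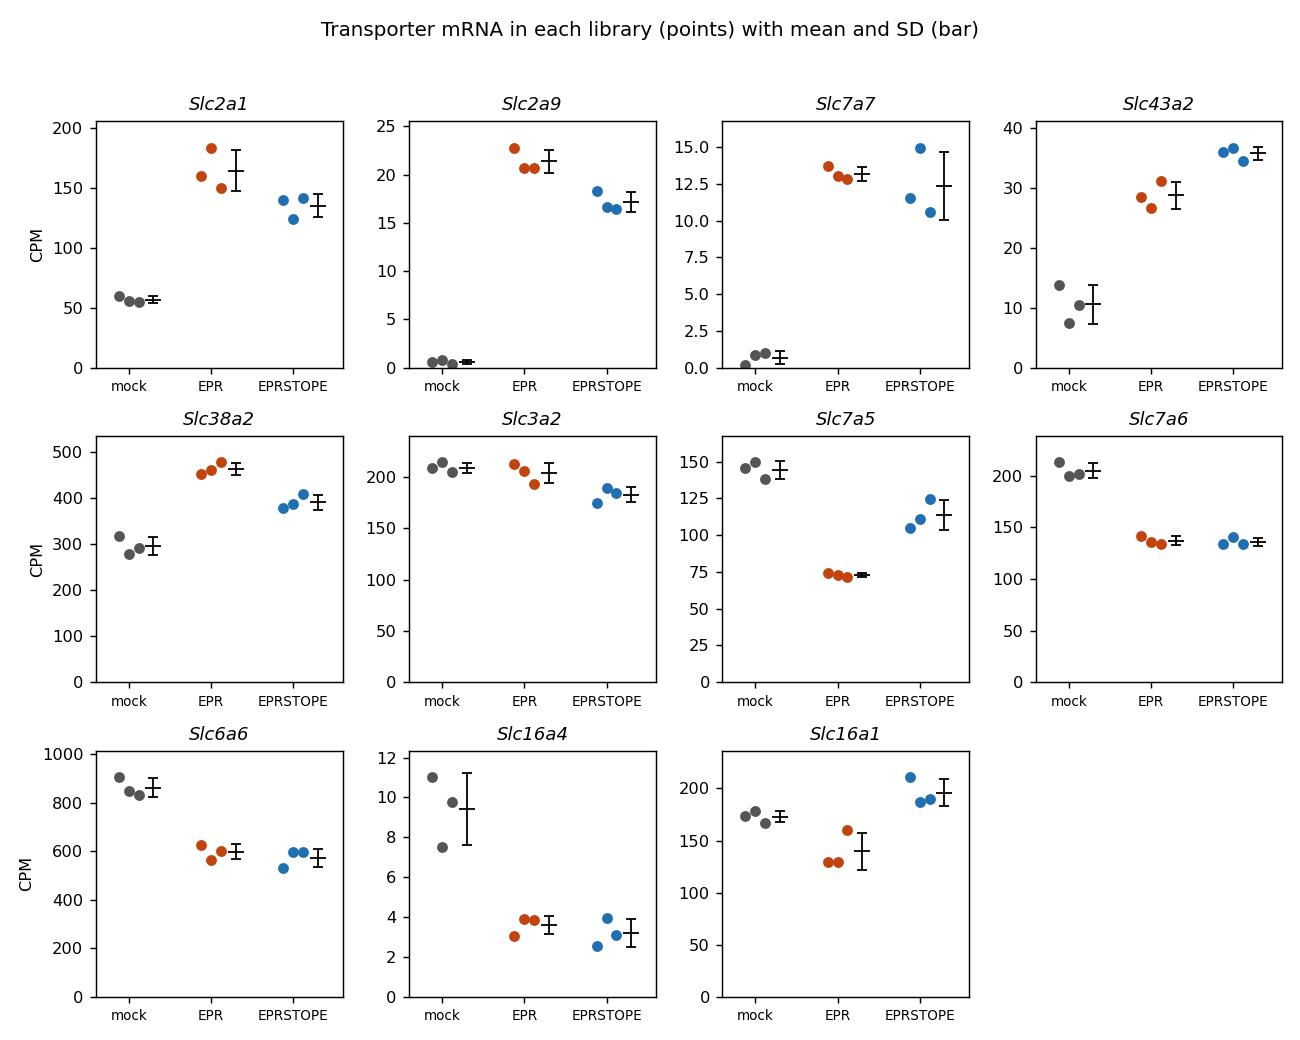
CPM of 11 transporter genes in each of the 9 libraries (points), with the mean and SD of each population as a bar, on axes that start at 0. *Slc2a1*, *Slc2a9*, *Slc7a7*, *Slc43a2* and *Slc38a2* sit above mock in all EPR and EPRSTOPE libraries, *Slc7a6*, *Slc6a6*, *Slc16a4* and *Slc7a5* below, and *Slc3a2* stays between 175 and 214 CPM.

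Of the 6 listed cationic amino acid carriers 2 were tested. Of these 1, *Slc7a2*, was called higher in EPR cells against mock and against EPRSTOPE cells, beside 15.2% and 6.86% of all genes. *Slc7a2* passed the filter through its EPR libraries alone. *Slc7a2* (ENSMUSG00000031596.15, chromosome 8 from 40862396 to 40922308), which encodes CAT2, a carrier of arginine and lysine, was at 0.311, 0.739 and 0.570 CPM in mock, 14.7, 12.4 and 12.7 CPM in EPR and 0.508, 0.534 and 0.575 CPM in EPRSTOPE libraries. Only the EPR libraries were raised, and EPRSTOPE lay within the mock range. The log2 fold change was 4.53 (standard error 0.27, adjusted p = 6.2e-08) for EPR and -0.05 (standard error 0.39, adjusted p = 0.93) for EPRSTOPE against mock, and 4.58 (standard error 0.28, adjusted p = 2.6e-07 by edgeR) between EPR and EPRSTOPE, on 2 to 7 counts per mock and EPRSTOPE library. Because 3 libraries must pass the filter, leaving out any EPR library removed the gene from the test. *Slc7a1*, which encodes the widely expressed carrier CAT1, was far more abundant and not called, at 164, 137 and 142 CPM in mock, 200, 176 and 173 CPM in EPR and 120, 142 and 157 CPM in EPRSTOPE libraries (log2 fold changes 0.31, adjusted p = 0.022, and -0.08, adjusted p = 0.58 by edgeR). The other listed cationic carriers, *Slc7a3*, *Slc3a1*, *Slc7a9* and *Slc6a14*, did not pass the filter, and of the 2 tested 0 were called in EPRSTOPE against mock by edgeR, DESeq2 or limma-voom (0 at an unadjusted p under 0.05).

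*Slc7a4*, a relative of the CAT genes with no established substrate, was at 1.71, 2.005 and 2.52 CPM in mock, 4.01, 4.92 and 6.35 CPM in EPR and 1.69, 0.854 and 1.15 CPM in EPRSTOPE libraries. It rose in EPR cells by 1.27 on the log2 scale (standard error 0.31, adjusted p = 0.005) and was 2.08 higher in EPR than in EPRSTOPE cells (standard error 0.34, adjusted p = 0.00066 by edgeR). The rise against mock no longer passed without EPR library 207 (1.29) or 208 (1.09) or mock library 203 (1.15) or 204 (1.22), with length-scaled TPM (1.13) or with protein-coding transcripts only (0.74). The difference between EPR and EPRSTOPE did not pass with length-scaled TPM (2.12) or protein-coding transcripts (1.496).

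Among carriers of glutamine and small neutral amino acids, *Slc38a2*, which encodes SNAT2, the carrier that cells raise when amino acids are short, rose in EPR cells. It was at 318, 279 and 291 CPM in mock, 453, 460 and 478 CPM in EPR and 378, 386 and 408 CPM in EPRSTOPE libraries. The populations did not overlap, with EPR highest. The log2 fold change was 0.65 for EPR (standard error 0.06, adjusted p = 2.6e-06) and 0.40 for EPRSTOPE (standard error 0.06, adjusted p = 0.00014), which was inside the fold limit, and the difference of 0.25 between them was not called (adjusted p = 0.0081 by edgeR). With length-scaled TPM the EPRSTOPE value was 0.70 and was called. *Slc38a1*, which encodes SNAT1, read 114, 112 and 114 CPM in mock, 146, 141 and 141 CPM in EPR and 97.4, 98.8 and 101 CPM in EPRSTOPE libraries. EPR was above and EPRSTOPE below every mock library, by 0.33 and -0.19 on the log2 scale, neither past the fold limit, whereas the difference of 0.53 between EPR and EPRSTOPE was called (standard error 0.05, adjusted p = 1.3e-05 by edgeR). With length-scaled TPM the gene was called higher in EPR against mock (0.64), its EPRSTOPE value turned to 0.10, and the difference of 0.54 between EPR and EPRSTOPE did not pass. Both genes lie on chromosome 15, whose 525 tested genes had medians of 0.49 and 0.52 on the log2 scale in EPR and EPRSTOPE against mock and -0.02 in EPR against EPRSTOPE, and the part of that shift in their values was not tested.

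*Slc1a5* (ENSMUSG00000001918.17, chromosome 7 from 16781340 to 16798274), which encodes ASCT2, a main route of glutamine uptake, moved apart in the overexpressing populations. It was at 80.3, 86.4 and 80.3 CPM in mock, 58.9, 65.0 and 56.2 CPM in EPR and 102, 118 and 111 CPM in EPRSTOPE libraries. All EPR libraries lay below and all EPRSTOPE libraries above mock. The log2 fold changes of -0.46 (standard error 0.08, adjusted p = 0.00028) and 0.42 (standard error 0.07, adjusted p = 0.00047) were each inside the fold limit, and the difference between EPR and EPRSTOPE was -0.88 (standard error 0.08, adjusted p = 3.8e-06 by edgeR), which was called. Without EPR library 207 the gene was called lower in EPR against mock (-0.51), and with length-scaled TPM the difference between EPR and EPRSTOPE was -0.97 and did not pass. Of the 10 listed carriers of this group 5 were tested, and 1 was called higher in EPR cells against mock, beside 15.2% of all genes. In EPRSTOPE cells against mock 0 were called by edgeR, DESeq2 or limma-voom, although 3 reached an unadjusted p under 0.05. The shares of all genes there were 15.6% higher and 12.4% lower. *Slc38a6*, a carrier of the same family, rose from 82.0, 76.5 and 92.5 CPM in mock to 162, 151 and 210 CPM in EPR and 166, 154 and 152 CPM in EPRSTOPE libraries (log2 fold changes 1.06 and 0.91, adjusted p = 1e-05 and 3.6e-05 by edgeR). *Slc38a10* was higher in every EPR and EPRSTOPE library than in mock (126 to 132 CPM in mock, 165 to 168 in EPR and 169 to 178 in EPRSTOPE) but stayed inside the fold limit at 0.36 and 0.43.

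Of 5 listed carriers of osmolytes 2 were tested, and in each population 1 rose and 1 fell. The shares of all genes called higher and lower against mock were 15.2% and 12.9% in EPR and 15.6% and 12.4% in EPRSTOPE cells. *Slc6a6* (ENSMUSG00000030096.8, chromosome 6 from 91684053 to 91759066), the taurine carrier gene, measured 907, 848 and 834 CPM in mock, 625, 565 and 603 CPM in EPR and 531, 595 and 595 CPM in EPRSTOPE libraries. Both populations were below mock and overlapped each other. It fell by 0.53 (standard error 0.06, adjusted p = 1.8e-05) in EPR and by 0.59 (standard error 0.06, adjusted p = 7.4e-06 by edgeR) in EPRSTOPE cells on the log2 scale, and in the EPR comparison it lost the call through the fold limit without mock library 203 (-0.499) or EPR library 207 (-0.49). The shares of its transcripts are given as a description, with no test. *Slc6a6*-205, a transcript of 738 nt classed as a target of nonsense-mediated decay, took 40.7% ± 3.28 of the gene's TPM in mock, 23.2% ± 3.77 with EPR and 26.5% ± 12.6 with EPRSTOPE (SD, n = 3 each), and the longest protein-coding transcript of 6186 nt took 33.4% ± 6.04, 53.4% ± 2.57 and 51.0% ± 18.9. The EPRSTOPE shares were spread widely. *Slc5a3*, which encodes the myo-inositol carrier SMIT1, rose from 66.3, 75.1 and 71.6 CPM in mock to 101, 96.6 and 109 CPM in EPR and 128, 126 and 117 CPM in EPRSTOPE libraries, by 0.52 (adjusted p = 6.1e-05) and 0.79 (adjusted p = 1.7e-06 by edgeR) on the log2 scale. The EPR value lay close to the fold limit and was not called without mock library 203 (0.47) or EPR library 208 (0.49), with protein-coding transcripts only (0.49) or with length-scaled TPM (0.14), under which the EPRSTOPE value of 0.50 did not pass either.

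The glycine carrier gene *Slc6a9* (GLYT1) rose from 12.3, 14.03 and 12.6 CPM in mock to 27.5, 27.1 and 25.3 CPM in EPR and 17.8, 20.8 and 19.7 CPM in EPRSTOPE libraries, with no overlap and with EPR highest. The log2 fold changes were 1.04 (standard error 0.10, adjusted p = 5.1e-06) and 0.59 (standard error 0.11, adjusted p = 0.00065), and the difference of 0.45 between EPR and EPRSTOPE was inside the fold limit (adjusted p = 0.0052 by edgeR). With length-scaled TPM neither rise passed (0.92 and 0.41), and with protein-coding transcripts only the EPRSTOPE value was 0.46. Without EPRSTOPE library 210 the difference between EPR and EPRSTOPE was 0.50 and passed. Of the 9 listed carriers of neurotransmitters and creatine, *Slc6a9* and *Slc6a8* were the 2 tested. The creatine carrier gene *Slc6a8* read 73.8, 70.2 and 68.8 CPM in mock, 56.3, 48.6 and 55.7 CPM in EPR and 72.5, 81.9 and 86.9 CPM in EPRSTOPE libraries. EPR lay below both other populations, by -0.40 against mock (adjusted p = 0.0014, inside the fold limit) and by -0.59 against EPRSTOPE (standard error 0.08, adjusted p = 0.00019 by edgeR), the latter not passing with length-scaled TPM (-0.45). With protein-coding transcripts only, its EPRSTOPE value against mock was 0.69 and was called.

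*Slc5a6*, which encodes the sodium-dependent multivitamin carrier of biotin and pantothenate, fell in EPR cells from 14.4, 15.4 and 16.8 CPM in mock to 10.5, 11.2 and 10.3 CPM, with EPRSTOPE at 13.9, 17.3 and 12.8 CPM. EPRSTOPE overlapped mock. The EPR effect of -0.55 on the log2 scale (standard error 0.14, adjusted p = 0.0057 by edgeR) no longer passed without any one of mock libraries 204 (-0.57) and 205 (-0.50) or EPR libraries 206 (-0.53), 207 (-0.58) and 208 (-0.51), nor with length-scaled TPM (-0.77). The 5 lysosomal amino acid carriers were all tested, with 1 called in EPR and 0 in EPRSTOPE cells against mock by edgeR, DESeq2 and limma-voom (3 and 2 at an unadjusted p under 0.05). Of all genes 15.2% were called higher and 12.9% lower in EPR cells, and 15.6% and 12.4% in EPRSTOPE cells. *Slc36a4*, which encodes PAT4, was called higher in EPR cells (25.0, 30.1 and 28.1 CPM in mock, 45.9, 35.6 and 43.6 in EPR and 43.7, 37.4 and 32.5 in EPRSTOPE libraries). Its log2 fold change of 0.59 (adjusted p = 0.0021 by edgeR) did not pass without mock library 203 or EPR library 206 (0.52 in each case) or with length-scaled TPM (0.60), and the EPRSTOPE value of 0.44 was called at 0.54 without EPRSTOPE library 211. The arginine sensor gene *Slc38a9* was at 12.6 to 14.6 CPM in mean and uncalled. Of the 5 carriers of glutamate and aspartate, *Slc1a2*, which encodes the glial carrier GLT-1, was tested, at 1.76 ± 0.647 CPM in mock, 3.32 ± 0.876 CPM with EPR and 0.482 ± 0.425 CPM with EPRSTOPE (SD, n = 3 each). Against mock it was called in neither population (log2 fold changes 0.95, adjusted p = 0.14, and -1.68, adjusted p = 0.041 by edgeR). It was higher in EPR than in EPRSTOPE cells by 2.63 on the log2 scale (standard error 0.58, adjusted p = 0.005 by edgeR), a call lost without EPR library 207 (2.69) or 208 (2.40) or EPRSTOPE library 210 (2.81) and with length-scaled TPM (3.18). *Slc36a4* and *Slc1a2* were singled out after their values were seen.

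Set against each other, EPR and EPRSTOPE cells differed in 9 of the 39 genes. In EPR cells 6 were higher (15.4%) and 3 lower (7.69%), beside 6.86% and 6.35% of all genes. Among the 6 higher in EPR were *Slc7a2*, *Slc7a4* and *Slc7a11* of family Slc7 as well as *Slc1a2* and *Slc38a1*, and lower in EPR were *Slc1a5*, *Slc6a8* and *Slc7a5*. Libraries of EPR and EPRSTOPE did not overlap for 23 of the 39 genes (59.0%, beside 43% of all genes). With length-scaled TPM 2 of the 9 kept the call, *Slc7a2* among them, and the other 7 lost it. Over all genes the calls went from 1055 higher and 976 lower with counts to 463 and 444 with length-scaled TPM. For *Slc7a11*, *Slc7a2* and *Slc7a4* the EPRSTOPE values were not called different from mock.

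**Figure D4:**
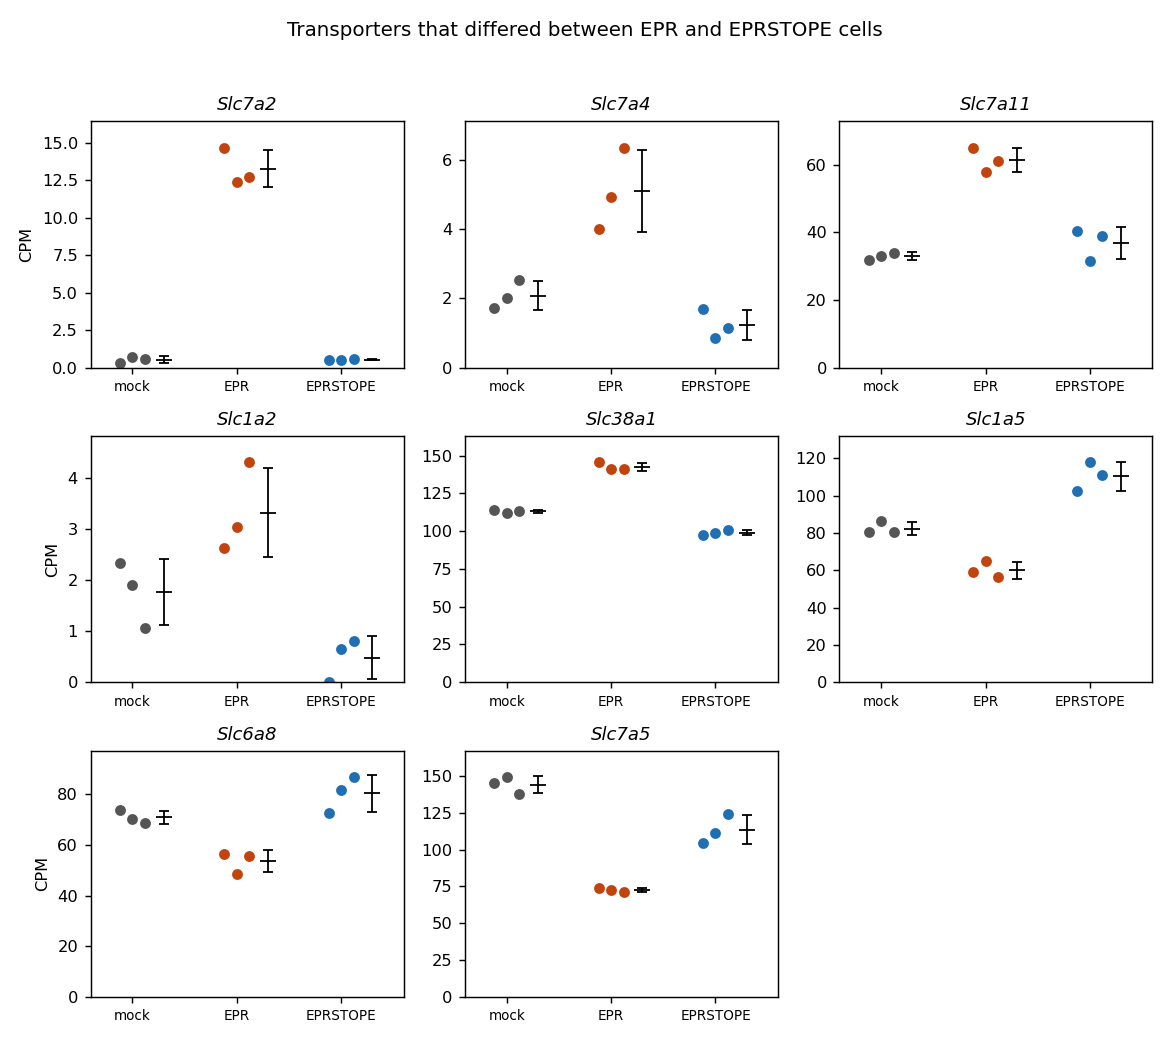
CPM in each of the 9 libraries for 8 of the 9 transporter genes called between EPR and EPRSTOPE cells, with the mean and SD of each population as a bar, on axes that start at 0. *Slc7a2* is at 12.4 to 14.7 CPM in EPR libraries and under 1 CPM in all others, and *Slc1a5* lies below mock in EPR and above mock in EPRSTOPE libraries.

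Genes that act with these carriers were described from lists, which are no part of the 98 genes and were chosen with earlier results of these data known. Their counts stand beside 15.2% called higher and 12.9% called lower of all genes tested in EPR against mock. In EPRSTOPE against mock these shares were 15.6% and 12.4%. Of the proteins that carry transporters to the cell surface, *Bsg* (basigin, the partner of MCT1 and MCT4) and *Nptn* were tested, and 0 were called by edgeR, DESeq2 or limma-voom in any comparison although both reached an unadjusted p under 0.05, with *Bsg* at 241.6 ± 8.56, 267.9 ± 7.71 and 303.5 ± 10.9 CPM in the order mock, EPR, EPRSTOPE (SD, n = 3 each). Of 8 genes of glucose entry and lactate metabolism 6 were tested, and 5 rose and 1 fell in EPR cells, against 4 and 1 in EPRSTOPE cells (median log2 fold changes 1.03 and 0.90). *Hk1* and *Hk2*, which encode hexokinases, went from 71.2 ± 2.47 to 182.0 ± 7.02 and 168.0 ± 13.8 CPM and from 93.7 ± 7.12 to 153.1 ± 9.05 and 160.6 ± 12.8 CPM. *Txnip*, which encodes a protein that withdraws GLUT1 from the surface, rose from 3.64 ± 0.254 to 29.9 ± 1.51 and 45.7 ± 2.73 CPM. The gene that fell was *Pdk4*, from 12.1 ± 2.01 CPM in mock to 0.10 ± 0.10 CPM in EPR and 1.68 ± 0.36 CPM in EPRSTOPE cells. *Ldha*, the most abundant of the list, was at 869.9 ± 27.3, 1428 ± 53.4 and 1187 ± 42.1 CPM in the same order, called in EPR cells only.

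Of 9 genes of glutathione synthesis and NRF2 targets 8 were tested, and 5 rose (62.5%) and 1 fell (12.5%) in each population against mock. These stand beside the 15.2% and 12.9% of all genes in EPR and the 15.6% and 12.4% in EPRSTOPE cells. *Gclc*, which encodes the catalytic subunit of the first step of glutathione synthesis, rose from 80.2 ± 4.84 to 306.0 ± 3.15 CPM with EPR and 260.4 ± 15.0 CPM with EPRSTOPE, and *Hmox1* (heme oxygenase 1) fell from 92.5 ± 5.18 to 31.5 ± 4.06 and 38.5 ± 3.37 CPM (SD, n = 3 each). Uncalled in both were *Gclm* (log2 fold changes 0.06 and -0.46) and *Txnrd1* (-0.13 and -0.17), and *Nqo1* did not pass the filter. *Nfe2l2*, the gene of NRF2 itself, was among the 5 that rose. Of the 13 genes of the amino acid response and serine synthesis, 1 rose and 6 fell in EPR cells (7.69% and 46.2%, beside 15.2% and 12.9% of all genes). In EPRSTOPE cells 1 rose and 5 fell (7.69% and 38.5%, beside 15.6% and 12.4%). The one that rose was *Sesn2*, a leucine sensor that is also a target of p53, while *Asns* (asparagine synthetase) fell from 159.0 ± 2.95 to 104.1 ± 3.34 CPM in EPR and stayed uncalled at 153.0 ± 10.8 CPM in EPRSTOPE cells. The reverse held for *Psat1*, at 433.7 ± 14.4, 420.4 ± 5.61 and 164.3 ± 5.53 CPM in the order mock, EPR, EPRSTOPE, called lower in EPRSTOPE only. *Chac1*, *Mthfd2* and *Aldh18a1* were called lower in both populations. *Atf4* itself was at 258.7 ± 18.7, 330.6 ± 23.5 and 277.5 ± 9.84 CPM and uncalled. Of 7 genes of glutamine use, 2 fell in EPR cells, and 1 rose and 1 fell in EPRSTOPE cells. Of 10 tested genes of amino acid sensing by mTORC1, *Rptor* was called higher in EPR cells (50.4 ± 4.15 to 72.4 ± 6.49 CPM) and 0 were called in EPRSTOPE cells against mock by edgeR, DESeq2 or limma-voom (5 at an unadjusted p under 0.05).

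The 59 transporter genes that did not pass the filter account for the rest. Of these, 13 had no count in any library, among them *Slc5a1*, *Slc38a3*, *Slc7a9* and *Slc6a12*, the betaine carrier gene. The highest single value among the 59 was 2.64 CPM for *Slc5a2* in mock library 203. Several carriers typical of neurons, kidney or muscle were in this set, such as *Slc6a4* (serotonin) and *Slc2a4*, each under 1 CPM in every library. At this depth such genes were not detectable or not testable, which does not show that they are absent.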

How the data were processed

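The data are 9 RNA-Seq libraries of NMuMG cells, grouped by genotype label into mock, EPR and EPRSTOPE (n = 3 each). Per the labels and methods, the authors made stranded total RNA libraries and ran kallisto 0.43.1 against Gencode vM15 transcripts, and deposited an estimated count and a TPM value (counts scaled by effective length to a fixed sum per library) for every transcript. The strand setting of kallisto is not given in the sources used here, so overlapping or antisense symbols may share reads.

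Here the deposited estimated counts were summed per gene symbol and rounded. The 15370 genes that reached 1 CPM in 3 or more libraries were fitted with edgeR 4.0.16 (R 4.3.3), TMM factors and 1 factor of 3 levels over all libraries, and tested by quasi-likelihood with Benjamini-Hochberg adjustment, with calls at an adjusted p below 0.01 and beyond 0.5 on the log2 scale. Standard errors came from the F statistic. CPM values use the TMM factors unless stated otherwise, and TPM served to compare genes and transcripts. Totals of 5972457 to 11876435 counts set the precision given with the values.

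Named genes were 10 fixed carriers, up to 10 called genes per direction and comparison (at least 5 CPM on average where higher, no overlap) and the 5 highest by TPM. The genes and lists were chosen with earlier results of these data known. Alternatives were DESeq2 1.42.0, limma-voom 3.58.1, other scalings, filters, thresholds and count types, and leaving out each library. Some genes are included in the counts but not reported here. Scripts were tested on simulated data. Gene coordinates came from Gencode M21 on GRCm38 and promoters from RefSeq on GRCm38.p6.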

Additional observations from a re-analysis of the deposited data

Results flagged for a closer look

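In EPR against EPRSTOPE, 4 called genes had libraries on opposite sides of mock, with every EPR library on one side of all mock libraries and every EPRSTOPE library on the other. These were *Slc1a5*, with a log2 fold change of EPR minus EPRSTOPE of -0.883, *Slc38a1* with 0.525, *Slc7a4* with 2.081 and *Slc1a2* with 2.626. For *Slc1a5* and *Slc38a1* neither effect against mock passed the fold limit, and for *Slc7a4* and *Slc1a2* the EPRSTOPE value against mock did not pass (adjusted p = 0.084 and 0.041 by edgeR). For *Slc1a2* the EPR value against mock of 0.95 did not pass either (adjusted p = 0.14 by edgeR). *Slc7a4* rests on a small gap, since the lowest mock library was at 1.71 CPM and the highest EPRSTOPE library at 1.69 CPM. *Slc1a2* is low throughout, at 0 to 0.805 CPM in EPRSTOPE libraries. All 4 differences kept their direction and failed the adjusted p limit with length-scaled TPM.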

How the results depend on the processing

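DESeq2, limma-voom, upper-quartile and RLE factors, no filter, and a fit of the 2 compared groups only kept each of the 19, 12 and 9 calls among the transporter genes in the comparisons of EPR with mock, EPRSTOPE with mock and EPR with EPRSTOPE. Length-scaled TPM kept 13, 9 and 2 of them, and gave 3 called lower in EPR against mock and 2 higher and 0 lower in EPR against EPRSTOPE. Calls over all genes fell as well. In EPR against mock length-scaled TPM called 1757 higher and 1260 lower of 15464, where counts called 2336 and 1980 of 15370. In EPRSTOPE against mock it called 1864 and 1194, where counts called 2399 and 1903. In EPR against EPRSTOPE it called 463 and 444, where counts called 1055 and 976. With at least 10 counts in every library 3 were higher in EPR against EPRSTOPE, since *Slc7a2*, *Slc7a4* and *Slc1a2* left the test. Of all 11460 genes tested under that filter 881 were called higher and 745 lower. At an adjusted p under 0.05 with no fold limit, 9 were lower in EPR and 9 in EPRSTOPE against mock, and 11 were higher and 7 lower in EPR against EPRSTOPE. Beyond a log2 fold change of 1 these counts were 1, 1 and 0 for the lower genes of the 3 comparisons. Shares of all genes at these other thresholds are not given here.

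Leaving out each library of the compared groups gave 11 to 14 higher and 4 to 5 lower in EPR against mock, 9 to 10 and 3 to 4 in EPRSTOPE against mock, and 4 to 6 and 3 to 4 in EPR against EPRSTOPE. Of the values of single genes, 14 turned in sign, none of them a called value. With length-scaled TPM these were the EPR against EPRSTOPE values of *Slc6a6* (-0.093), *Slc7a6* (-0.142) and *Slc7a7* (-0.359), *Slc38a1* in EPRSTOPE (0.096) and *Slc16a3* in EPR against mock (0.314). Others were *Slc7a2* in EPRSTOPE (0.024 with limma-voom) and *Slc38a10* between EPR and EPRSTOPE (0.021 with protein-coding transcripts). The rest turned when 1 library was left out, over ranges of -0.255 to 0.181 for *Slc7a2* in EPRSTOPE (positive without mock library 204), -0.014 to 0.038 for *Slc7a6* between EPR and EPRSTOPE (negative without EPR library 206 or EPRSTOPE library 211), -0.018 to 0.256 for *Slc7a7* between them (negative without EPRSTOPE library 211), -0.065 to 0.015 for *Slc3a2* in EPR (positive without EPR library 208), -0.164 to 0.019 for *Slc7a1* in EPRSTOPE (positive without library 209) and -0.229 to 0.012 for *Slc5a6* in EPRSTOPE (positive without library 211). The cause of the changes under length-scaled TPM was not tested. No paired analysis was possible because the populations share no replicate numbers. Depth limits genes near 0.253 to 0.502 CPM.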
